A study of Rattus norvegicus with 12 samples.

Results

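The SLC25 family comprises the carriers that move metabolites across the inner membrane of mitochondria. Its members were taken from the rat arrays by name: every probe, other than control spots, whose gene name or reference symbol read Slc25a followed by a number. The rule gave 28 genes on 42 probes, out of 35537 genes or unmatched transcripts on 41012 probes, and 27 of the 28 were measured well enough to be tested. The kidney cortex came from male Fisher 344 rats aged 8 weeks, which had been bought at 7 weeks and acclimatized for 1 week. Cephaloridine, an antibiotic of the cephalosporin class known for injuring the proximal tubule, was injected once into a vein, and the animals were killed 24 h later. All 4 groups received the same saline vehicle, with 0 mg/kg cephaloridine (control), 150 mg/kg (low), 300 mg/kg (middle) or 600 mg/kg (high), and each held 3 animals with 1 array per animal.

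Each carrier of the family is a small protein built from repeats that span the membrane in pairs, and most exchange a substrate of the matrix for a substrate of the cytosol. The proximal tubule, which makes up most of the cortex, lives on the oxidation of fatty acids, lactate and amino acids and makes glucose, so its mitochondria depend on carriers for phosphate, ADP and ATP, for di- and tricarboxylates, for glutamate and aspartate, and for acylcarnitines. Other members bring in cofactors such as NAD+ and folate, and others handle iron and glutathione. Carriers are encoded in the nucleus, made in the cytosol and inserted by the translocases of the outer and inner membrane.

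The DNA just before the start site is shown for 3 members picked by their signals, not as a sample of the family. Slc25a20 and Slc25a39 were higher in every dosed animal than in every control, as was Slc25a22, which is not shown. Slc25a51 was lower at 600 mg/kg than at 300 mg/kg. Each line gives the 150 bases that end at the base before the annotated start (RefSeq, GRCr8), 5′ to 3′ on the strand of the gene. Capitals mark matches on either strand to GGGCGG (the Sp1 box), CCGGAAG (the ETS core bound by GABP, a regulator of mitochondrial genes), CACGTG (the E-box), TGACG (the CRE core) or TGACNNNGC (the antioxidant response element).
Slc25a20 (chr8:118243423-118243572, + strand): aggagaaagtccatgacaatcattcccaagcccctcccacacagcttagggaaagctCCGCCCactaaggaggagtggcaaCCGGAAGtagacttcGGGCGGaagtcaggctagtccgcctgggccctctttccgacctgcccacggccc
Slc25a39 (chr10:87866974-87867123, - strand): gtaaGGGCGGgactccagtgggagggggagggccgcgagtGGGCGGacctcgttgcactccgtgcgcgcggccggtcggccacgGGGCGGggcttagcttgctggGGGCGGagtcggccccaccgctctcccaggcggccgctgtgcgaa
Slc25a51 (chr5:64459005-64459154, - strand): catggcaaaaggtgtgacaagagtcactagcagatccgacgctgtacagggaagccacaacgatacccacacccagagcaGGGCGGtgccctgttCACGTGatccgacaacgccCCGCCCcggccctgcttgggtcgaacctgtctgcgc
Slc25a20 held an ETS core between its 2 Sp1 boxes, Slc25a39 held 4 Sp1 boxes and no other match, and Slc25a51 held an E-box between 2 Sp1 boxes. Windows of 250 bases before to 50 after the annotated start were found for 23 of the 28 members. The bases before the start given for Slc25a15 end like those before an internal exon, so its window may not be a promoter; without it the 5 motif counts that follow were the same over 22 windows and the median GC content was 62.0%. An Sp1 box was in 18 of them (78.3%), against 34.89% of all 27457 windows and 60.74% of the 9009 windows of tested genes. The ETS core was in 5 (21.7% against 16.88% of tested genes), the CRE core in 7 (30.4% against 31.32%), and the E-box and the antioxidant response element in 2 each (8.7% against 9.34% and 14.59%). Median GC content was 61.0% for the members and 60.3% for tested genes. A match describes the letters of the window and does not show that a factor binds there.

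Signals are given as log2 values relative to the 75th percentile of the same array, so a positive value lies above that percentile. The 12 arrays were alike: median signals ran from 59.0 to 68.6 intensity units, 75th percentiles from 627.2 to 711.6, and the share of probes well above background from 59.2% to 63.3%; 0 spots were saturated. No slide held both control and high-dose animals. The controls and low 1 were on slide 1, low 2 with middle 1 on slide 2, low 3 with middle 2 on slide 3, and middle 3 with the 3 high-dose animals on slide 4. A fit with slide as a block is called the blocked fit here. It therefore links 600 mg/kg to the controls through a chain of few arrays, and its values stand beside the results. Its value for 600 against 300 mg/kg is the high-dose mean minus middle 3, so it rests on 1 middle-dose animal. In the cortex as a whole, fewer cells of a type and less RNA per cell cannot be told apart.

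At 600 mg/kg the family moved in both directions. Of 27 tested members, 13 (48.1%) passed an adjusted p of 0.05 against control in limma, where 34.8% of all 20760 tested genes did. Higher were 7 (25.9%, with 18.0% of all genes higher) and lower were 6 (22.2%, with 16.8% of all genes lower). The 3 high-dose arrays lay wholly above or below the 3 controls for 18 members (66.7%, against 56.1% of all genes). These include Slc25a24, which was tested only because its 3 high-dose arrays read well above background. That filter favoured its place above the controls. The median change of the 27 was -0.06 on the log2 scale, beside 0.00 for all genes, and the median size of the change was 0.14, beside 0.16. Changes were small: the called members ran from 1.36-fold lower (Slc25a15) to 1.38-fold higher (Slc25a12). In the blocked fit, 0 members were called at 600 mg/kg (2.81% of all genes were), and the smallest adjusted p among them was 0.0926. The median standard error rose from 0.06 to 0.12, and 21 of 27 members kept their sign. The median change of the 27 was 0.06 in the blocked fit, opposite in sign to the main fit.

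**Figure D1:**
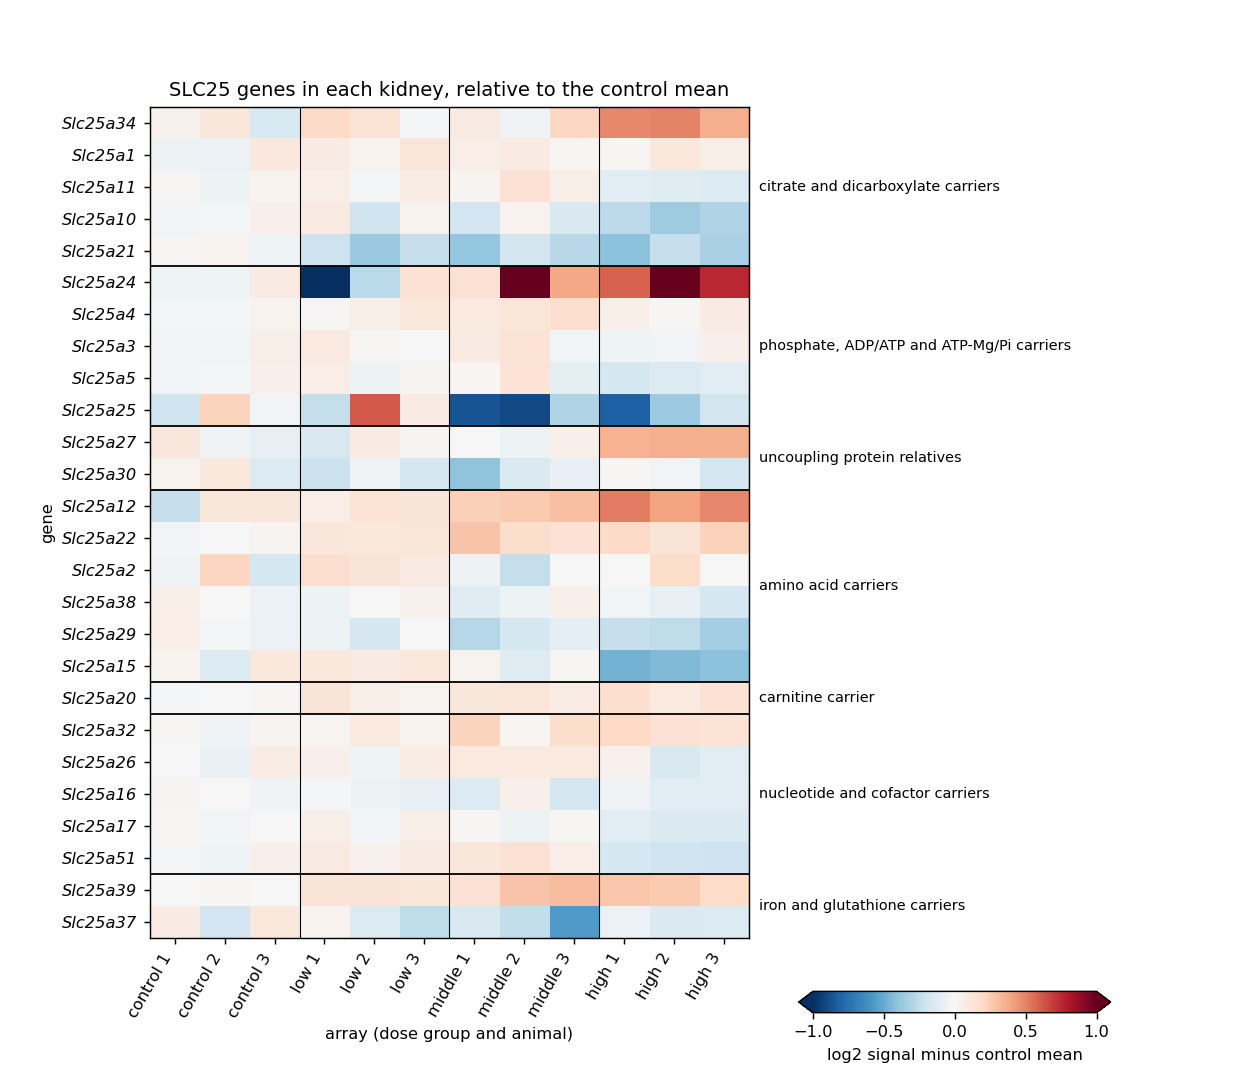
Each row is a tested SLC25 gene named in the text and each column an array; the colour is the log2 signal minus the mean of the 3 controls, from blue (lower) to red (higher), with values past 1 in either direction shown in the end colours. Rows are grouped by role; the columns of the high dose are red for Slc25a12, Slc25a34 and Slc25a27 and blue for Slc25a15, Slc25a10 and Slc25a21, and Slc25a24 and Slc25a25 vary most between animals.

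The carriers of amino acids went both ways. Of the 6 tested, Slc25a12 and Slc25a22 rose at 600 mg/kg, Slc25a15 and Slc25a29 fell, and Slc25a2 and Slc25a38 did not pass the test. Of all genes, 18.0% were higher and 16.8% lower, and 6 genes are too few to set apart from these shares. Slc25a15, which exchanges ornithine for citrulline in the urea cycle, read 3.05, 2.88 and 3.12 in the controls, 3.12, 3.1 and 3.12 at 150 mg/kg, 3.05, 2.89 and 3.03 at 300 mg/kg and 2.54, 2.57 and 2.61 at 600 mg/kg. All 3 high-dose animals were below all 9 others; the controls overlapped both lower doses, and the middle dose lay below the low dose. The change at 600 mg/kg against control was -0.44 ± 0.06 (log2, limma SE, n = 3 animals per group; adjusted p = 0.00073), 1.36-fold lower. Against 300 mg/kg it was -0.42 ± 0.06 (adjusted p = 0.00158). In the blocked fit the change of Slc25a15 against 300 mg/kg was -0.45 (adjusted p = 0.0343). That value is the high-dose mean minus middle 3 on slide 4, so it rests on middle 3 alone. Against control the blocked value was -0.49 with an adjusted p of 0.146.

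Slc25a12 is a carrier that exports aspartate for glutamate as part of the malate-aspartate shuttle. Its probe read -4.09, -3.74 and -3.75 in the controls, -3.79, -3.72 and -3.73 at 150 mg/kg, -3.62, -3.60 and -3.56 at 300 mg/kg and -3.35, -3.46 and -3.37 at 600 mg/kg. The high-dose arrays were above the middle-dose arrays, which were in turn above the low-dose arrays; control 1 was the lowest of the 12. The rise at 600 mg/kg was 0.47 ± 0.08 (adjusted p = 0.00223, 1.38-fold), with an adjusted p of 0.404 in the blocked fit. At 300 mg/kg the value was 0.27 ± 0.08 (adjusted p = 0.0618). There it was called higher with quantile scaling (adjusted p = 0.0486), a median shift (0.0451) or the authors' deposited value table (0.0442). Another probe, tied to Slc25a12 only through an older symbol and so outside the 42, read 3.49, 3.46 and 3.53 in the controls, 3.57, 3.63 and 3.68 at 150 mg/kg, 3.92, 3.87 and 3.86 at 300 mg/kg and 3.95, 3.93 and 3.95 at 600 mg/kg. It was far brighter than the probe within the 42, and its 4 groups followed the order of dose without overlap. It rose by 0.45 at 600 mg/kg (adjusted p = 6.57e-05 over all probes) and by 0.39 at 300 mg/kg (adjusted p = 0.00141).

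Slc25a22, which carries glutamate with a proton, read -0.10, -0.07 and -0.04 in the controls, 0.04, 0.03 and 0.05 at 150 mg/kg, 0.21, 0.10 and 0.08 at 300 mg/kg and 0.12, 0.06 and 0.16 at 600 mg/kg. Every dosed animal was above every control. It rose by 0.20 ± 0.05 at 300 mg/kg (adjusted p = 0.0224) and by 0.19 ± 0.05 at 600 mg/kg (adjusted p = 0.0116); the blocked values were 0.23 (adjusted p = 0.233) and 0.27 (0.213). Slc25a29, a carrier of basic amino acids, fell: 0.72, 0.65 and 0.60 in the controls, 0.60, 0.48 and 0.66 at 150 mg/kg, 0.38, 0.48 and 0.56 at 300 mg/kg and 0.42, 0.40 and 0.32 at 600 mg/kg. The high-dose arrays lay below the controls and the low-dose arrays and overlapped the middle dose. The change of Slc25a29 at 600 mg/kg was -0.27 ± 0.06 (adjusted p = 0.00848), and -0.38 in the blocked fit (adjusted p = 0.128). Its second probe was also called lower at 600 mg/kg (adjusted p = 0.00598). At 300 mg/kg the difference was -0.18 ± 0.06 (adjusted p = 0.0874), and -0.20 in the blocked fit (adjusted p = 0.317). The second probe (-0.32, adjusted p = 0.0176) and the mean of the probes (-0.25, adjusted p = 0.0309) were called lower at 300 mg/kg. Slc25a38, which supplies glycine to heme synthesis, changed by -0.09 (95% interval -0.22 to 0.04) and Slc25a2, a second carrier of ornithine, by 0.06 (-0.17 to 0.28) at 600 mg/kg.

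The carriers of citrate and dicarboxylates also went both ways: of 5 tested, Slc25a34 rose and Slc25a10 and Slc25a21 fell at 600 mg/kg. Such a count is too small to set apart from the shares of all genes (18.0% higher and 16.8% lower). Slc25a10, the dicarboxylate carrier that exchanges malate or succinate for phosphate, read 4.13, 4.14 and 4.21 in the controls, 4.25, 3.96 and 4.19 at 150 mg/kg, 3.97, 4.20 and 4.01 at 300 mg/kg and 3.90, 3.81 and 3.86 at 600 mg/kg. The high-dose arrays were the 3 lowest of the 12. The fall was -0.31 ± 0.08 (adjusted p = 0.0145, 1.24-fold lower); in the blocked fit it was -0.06 (adjusted p = 0.759). Slc25a21, which carries oxodicarboxylates from the breakdown of lysine and tryptophan, was at -0.07, -0.05 and -0.13 in the controls, -0.29, -0.46 and -0.32 at 150 mg/kg, -0.47, -0.27 and -0.36 at 300 mg/kg and -0.49, -0.32 and -0.41 at 600 mg/kg. All 9 dosed animals lay below the 3 controls, and the dosed groups overlapped one another. The change was -0.27 ± 0.07 at 150 mg/kg (adjusted p = 0.257), -0.28 ± 0.07 at 300 mg/kg (adjusted p = 0.0262) and -0.32 ± 0.07 at 600 mg/kg (adjusted p = 0.00528). The blocked values at those doses were -0.21, -0.19 and -0.23 (adjusted p = 0.667, 0.371 and 0.34). On slide 1, low 1 was 0.21 below the controls (-0.21).

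Slc25a34, a member without a settled substrate that is placed here by its similarity to the dicarboxylate carriers, read -1.43, -1.36 and -1.62 in the controls, -1.28, -1.34 and -1.49 at 150 mg/kg, -1.38, -1.51 and -1.26 at 300 mg/kg and -0.99, -0.97 and -1.11 at 600 mg/kg. The high-dose arrays were above the 9 others. It rose by 0.45 ± 0.09 against control (adjusted p = 0.00359; 0.40, adjusted p = 0.235 in the blocked fit) and by 0.36 ± 0.09 against 300 mg/kg (adjusted p = 0.016; 0.24, adjusted p = 0.201 in the blocked fit); the latter was not called without high 1 (adjusted p = 0.0543) or without high 2 (adjusted p = 0.0549). Slc25a11, the oxoglutarate-malate carrier of the malate-aspartate shuttle, was at 4.24, 4.18 and 4.27 in the controls, 4.30, 4.22 and 4.31 at 150 mg/kg, 4.26, 4.38 and 4.29 at 300 mg/kg and 4.12, 4.11 and 4.10 at 600 mg/kg. The 3 high-dose arrays were the lowest. The change passed the test against 300 mg/kg (-0.20 ± 0.05, adjusted p = 0.0113) and was -0.18 in the blocked fit (adjusted p = 0.0898). Against control it missed the test (-0.12 ± 0.05, adjusted p = 0.0607) and was -0.06 in the blocked fit (adjusted p = 0.75). With quantile scaling (-0.15, adjusted p = 0.0121) or scan day as a block (-0.12, adjusted p = 0.0443) it was called lower against control. Slc25a1, the citrate carrier that feeds fatty acid synthesis, read 1.24, 1.23 and 1.39 in the controls, 1.37, 1.32 and 1.41 at 150 mg/kg, 1.35, 1.37 and 1.31 at 300 mg/kg and 1.31, 1.39 and 1.34 at 600 mg/kg. Its groups overlapped, and the difference at 600 mg/kg was 0.06 (95% interval -0.06 to 0.17).

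**Figure D2:**
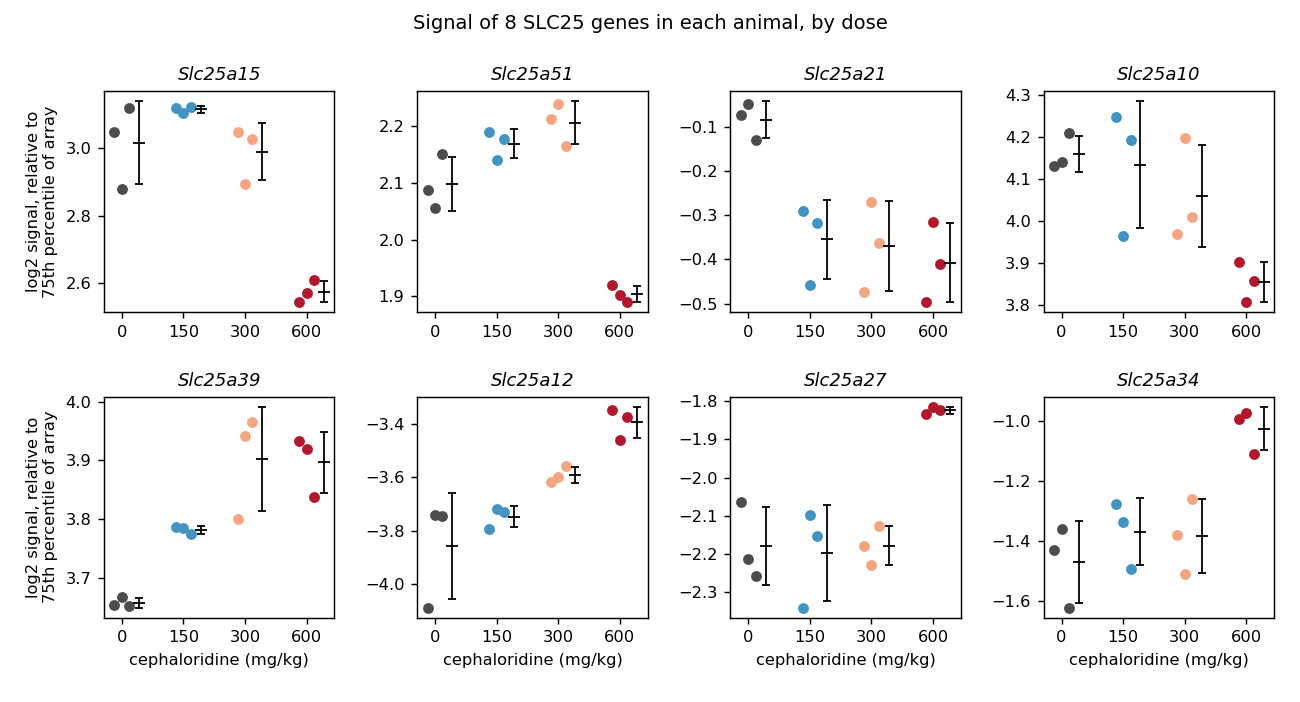
Log2 signal relative to the 75th percentile of the array (vertical axis; each panel has its own range) against cephaloridine dose in mg/kg for 8 called members. Points are animals, and the bar beside them is the mean with its SD (n = 3). In Slc25a15, Slc25a51, Slc25a27 and Slc25a34 the 600 mg/kg group stands apart from the other groups, while in Slc25a21 and Slc25a39 the 3 dosed groups all lie to the same side of the controls.

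The carriers that join respiration to ATP supply did not pass the test in the main fit: 0 of 5 tested were called in any of the 5 comparisons. Of all genes, 34.8% were called at 600 mg/kg and 13.0% at 300 mg/kg against control, and 22.5% between these doses. A count over 5 genes is too small to set apart from these shares. Slc25a3, the phosphate carrier, read 6.12, 6.12 and 6.21 in the controls, 6.25, 6.16 and 6.15 at 150 mg/kg, 6.24, 6.28 and 6.12 at 300 mg/kg and 6.10, 6.12 and 6.20 at 600 mg/kg. The difference at 600 mg/kg was -0.01 (95% interval -0.13 to 0.12), and the groups overlapped. Slc25a4, the ADP/ATP carrier of heart and muscle, was at 6.18, 6.17 and 6.23 in the controls, 6.20, 6.25 and 6.30 at 150 mg/kg, 6.29, 6.32 and 6.36 at 300 mg/kg and 6.25, 6.21 and 6.28 at 600 mg/kg. The middle-dose arrays lay above the controls (0.13 ± 0.04, adjusted p = 0.0724), and at 600 mg/kg the difference was 0.05 (-0.05 to 0.15). Slc25a5, the ADP/ATP carrier of most tissues, read 7.18, 7.18 and 7.25 in the controls, 7.27, 7.15 and 7.23 at 150 mg/kg, 7.22, 7.34 and 7.11 at 300 mg/kg and 7.02, 7.06 and 7.09 at 600 mg/kg. The high-dose arrays were the 3 lowest, with a difference of -0.14 ± 0.06 (95% interval -0.28 to -0.01, adjusted p = 0.0864). Slc25a4 and Slc25a5 had 3 probes each and none of these was called at 600 mg/kg in the main fit. With quantile scaling Slc25a5 was called lower at 600 mg/kg against control (adjusted p = 0.0466). Without middle 3, Slc25a5 was called lower at 600 than at 300 mg/kg (adjusted p = 0.022). Slc25a4 was called higher at 300 mg/kg against control with normexp background correction (adjusted p = 0.0263). The pair are close relatives, so a probe of either could take up message of the other.

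The calcium-regulated ATP-Mg/phosphate carriers Slc25a24 and Slc25a25 varied most between animals. Slc25a25 read 4.20, 4.62 and 4.37 in the controls, 4.16, 5.01 and 4.48 at 150 mg/kg, 3.54, 3.49 and 4.10 at 300 mg/kg and 3.58, 4.03 and 4.21 at 600 mg/kg. The middle-dose arrays were below all controls and all low-dose arrays, whereas the high dose reached up to the lowest control. Its differences were -0.69 ± 0.24 for 300 mg/kg against control (adjusted p = 0.0894), -0.84 ± 0.24 for 300 against 150 mg/kg (adjusted p = 0.166) and -0.45 ± 0.24 for 600 mg/kg against control (adjusted p = 0.176; -1.62, adjusted p = 0.0926 in the blocked fit). The second probe of Slc25a25 placed the same animals at its ends, low 2 highest and middle 2 lowest. Slc25a24 was well above background on 4 arrays, 1 at 300 mg/kg and 3 at 600 mg/kg. Slc25a24 was tested only because its 3 high-dose arrays all read well above background. That filter favoured a bound above the controls at 600 mg/kg, so the bound of 1.13-fold does not show a rise. The difference from control did not pass the test in limma (adjusted p = 0.199).

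**Figure D3:**
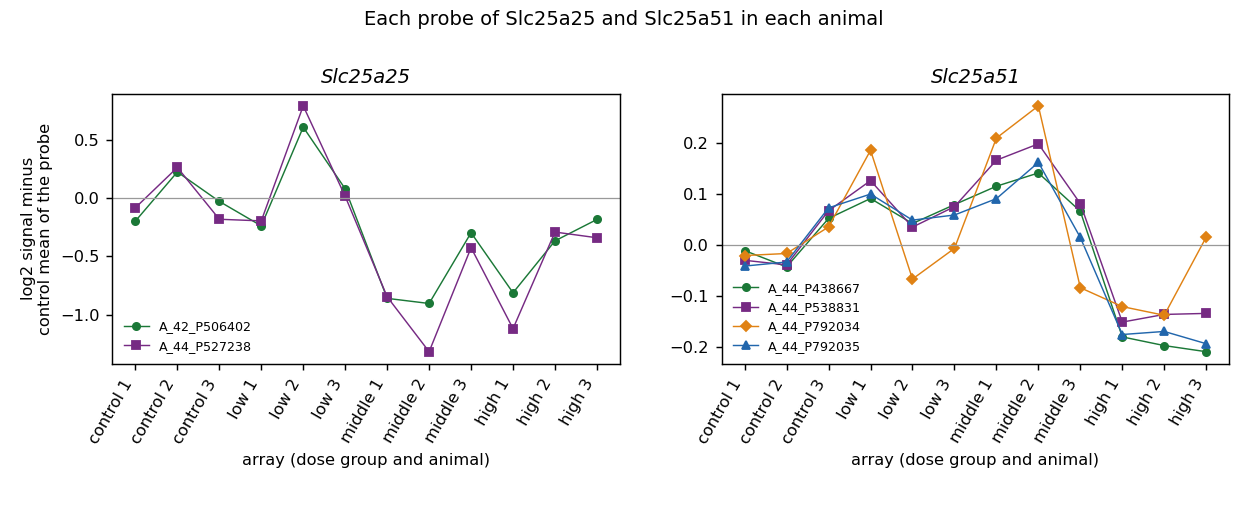
Log2 signal of each probe minus the mean of that probe over the 3 controls (vertical axis) in each of the 12 animals; symbols and colours stand for probes, named in the keys, and the lines only join the values of a probe. Both probes of Slc25a25 are highest in low 2 and lowest in middle 2, and 3 of the 4 probes of Slc25a51 are below 0 in all 3 high-dose animals and above 0 in all middle-dose animals; the remaining probe of Slc25a51 is close to 0 in high 3.

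Of the relatives of the uncoupling proteins, which let protons leak back into the matrix, 2 were tested. Slc25a27, known mostly from brain, was at -2.06, -2.21 and -2.26 in the controls, -2.34, -2.10 and -2.15 at 150 mg/kg, -2.18, -2.23 and -2.13 at 300 mg/kg and -1.83, -1.81 and -1.82 at 600 mg/kg. The 3 high-dose arrays agreed closely and stood above the 9 others. It rose by 0.36 ± 0.07 against control (adjusted p = 0.00349; 0.06, adjusted p = 0.824 in the blocked fit) and by 0.35 ± 0.07 against 300 mg/kg (adjusted p = 0.00558; 0.30, adjusted p = 0.0559 in the blocked fit). Another, dimmer probe of Slc25a27 was not called (adjusted p = 0.273 against control), and its remaining probe was too dim to be tested. Slc25a30, the kidney mitochondrial carrier, differed by -0.06 (95% interval -0.28 to 0.15) at 600 mg/kg, and neither of its probes was called.

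Slc25a20 exchanges acylcarnitine for carnitine, the step that brings long-chain fatty acids into the matrix. It read 2.50, 2.51 and 2.52 in the controls, 2.64, 2.57 and 2.55 at 150 mg/kg, 2.63, 2.63 and 2.58 at 300 mg/kg and 2.68, 2.60 and 2.66 at 600 mg/kg. Every dosed animal was above every control. The rise at 600 mg/kg was 0.14 ± 0.04 (1.10-fold, adjusted p = 0.024); it was not called without control 1 (adjusted p = 0.077), control 2 (0.0653), high 1 (0.0842) or high 3 (0.0749), and was 0.26 in the blocked fit (adjusted p = 0.156). Without the filter on dim probes the rise at 600 mg/kg was also not called (adjusted p = 0.0701). At 300 mg/kg the difference was 0.10 ± 0.04 (adjusted p = 0.115), called higher only with normexp background correction (adjusted p = 0.0393).

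Of 6 tested carriers of nucleotides and cofactors, Slc25a32 rose and Slc25a17 and Slc25a51 fell at 600 mg/kg. These counts, too, are too small to set apart from the 18.0% of all genes that were higher and the 16.8% that were lower. Slc25a51, the carrier that brings NAD+ into mitochondria, read 2.09, 2.06 and 2.15 in the controls, 2.19, 2.14 and 2.18 at 150 mg/kg, 2.21, 2.24 and 2.17 at 300 mg/kg and 1.92, 1.90 and 1.89 at 600 mg/kg. The middle-dose arrays lay above the controls and the high-dose arrays below every other array. Against 300 mg/kg the change was -0.30 ± 0.04 (adjusted p = 0.000749, 1.23-fold lower), and the blocked value, against middle 3 alone, was -0.26 (adjusted p = 0.035). Against control it was -0.20 ± 0.04 at 600 mg/kg (adjusted p = 0.0045; -0.10, adjusted p = 0.568 in the blocked fit) and 0.11 ± 0.04 at 300 mg/kg (adjusted p = 0.101). Of its 4 probes, 3 were called lower at 600 mg/kg against both control and 300 mg/kg, and the mean of the 4 missed the threshold against control (adjusted p = 0.0542).

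Slc25a17, a carrier of CoA and FAD in the peroxisome membrane, fell by 0.13 at 600 mg/kg (-0.13 ± 0.04, adjusted p = 0.0303; -0.12, adjusted p = 0.544 in the blocked fit) from 0.76, 0.71 and 0.74 in the controls to 0.64, 0.60 and 0.59. Its high-dose arrays lay below those of every other group, which read 0.80, 0.71 and 0.80 at 150 mg/kg and 0.75, 0.69 and 0.75 at 300 mg/kg. The call was lost without control 1, 2 or 3 (adjusted p = 0.098, 0.0514 and 0.0747) and without high 2 or 3 (0.0799 and 0.0927). It was also lost with a median shift (adjusted p = 0.129), the authors' deposited value table (0.131) or no filter on dim probes (0.0845). Slc25a32, the carrier of folate and FAD, rose by 0.16 ± 0.06 (adjusted p = 0.0461; 0.06, adjusted p = 0.796 in the blocked fit), from -1.40, -1.45 and -1.39 in the controls, through -1.39, -1.31 and -1.38 at 150 mg/kg and -1.19, -1.39 and -1.23 at 300 mg/kg, to -1.21, -1.27 and -1.27. The high-dose arrays lay above the controls and overlapped the middle dose. This call was lost when any control or high-dose array was left out (adjusted p from 0.0743 to 0.137). It was also lost with normexp background correction (adjusted p = 0.119), no filter on dim probes (0.109) or replicate number as a block (0.0641). Slc25a26, which carries S-adenosylmethionine, and Slc25a16, tied to CoA, differed by -0.08 each, with intervals of -0.21 to 0.06 and -0.21 to 0.05.

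Slc25a39, the mitochondrial importer of glutathione, read 3.65, 3.67 and 3.65 in the controls, 3.79, 3.79 and 3.77 at 150 mg/kg, 3.80, 3.94 and 3.96 at 300 mg/kg and 3.93, 3.92 and 3.84 at 600 mg/kg. All 9 dosed animals were above the 3 controls, and the middle and high doses overlapped. The difference was 0.12 ± 0.05 at 150 mg/kg (adjusted p = 0.43), 0.25 ± 0.05 at 300 mg/kg (adjusted p = 0.0142; 0.22, adjusted p = 0.251 in the blocked fit) and 0.24 ± 0.05 at 600 mg/kg (adjusted p = 0.00438). Its second probe was called at the same 2 doses (adjusted p = 0.0123 and 0.00327). On slide 1, low 1 was 0.13 above the controls, and in the blocked fit the value at 600 mg/kg was 0.15 (adjusted p = 0.462). Slc25a37, an importer of iron for heme and iron-sulfur clusters, read -3.67, -3.94 and -3.64 in the controls, -3.71, -3.89 and -4.01 at 150 mg/kg, -3.90, -4.00 and -4.32 at 300 mg/kg and -3.81, -3.89 and -3.89 at 600 mg/kg. Its groups overlapped the controls, and the difference at 600 mg/kg was -0.11 (95% interval -0.38 to 0.15), turning to 0.49 in the blocked fit (adjusted p = 0.192). Slc25a47, a carrier known from liver, was well above background on 2 arrays and was not tested.

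Set in order of dose, the calls were few below 600 mg/kg. At 150 mg/kg 0 members were called (0.101% of all genes were), and 3 had an unadjusted p under 0.05 in limma (11.1%, against 10.1% of all genes); 0 were called under any alternative. At 300 mg/kg 3 were called (11.1%, against 13.0% of all genes): Slc25a22 and Slc25a39 higher (8.21% of all genes were higher) and Slc25a21 lower (4.81%). With a median shift in place of the percentile, 3 were higher and 0 lower, as the split over all genes moved from 1704 higher and 999 lower to 2033 and 721. All 3 calls were lost without control 1 or without control 2, and 0 were called in the blocked fit (0.217% of all genes were). Between 150 and 300 mg/kg 0 members were called (0.183% of all genes were), with 4 at an unadjusted p under 0.05 (14.8%, against 16.0%) and 0 under any alternative. Between 300 and 600 mg/kg 5 were called (18.5%, against 22.5% of all genes): Slc25a27 and Slc25a34 higher (9.61% of all genes) and Slc25a11, Slc25a15 and Slc25a51 lower (12.9%). Slc25a15 and Slc25a51 were also called in the blocked fit against middle 3 alone, where 9.75% of all genes were called.

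**Figure D4:**
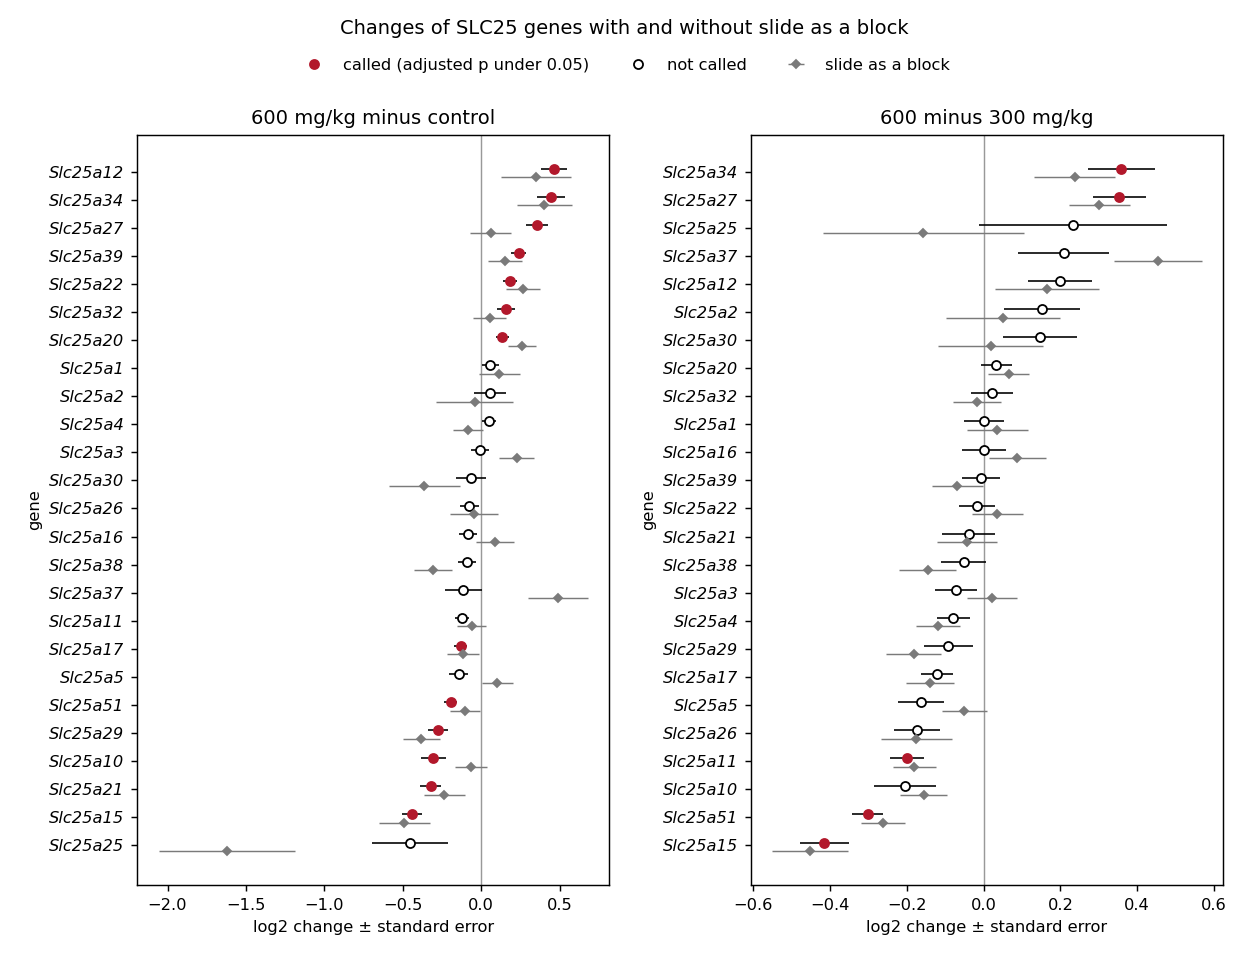
Log2 change with its standard error (horizontal axis) of the tested members named in the text, Slc25a24 left out because it was mostly below background, for 600 mg/kg minus control (left) and 600 minus 300 mg/kg (right), sorted by the change. Red circles are called members, open circles are not called, and grey diamonds come from the blocked fit, which takes slide as a block. The diamonds have wider errors than the circles on the left, and those of Slc25a15 and Slc25a51 on the right stay well below 0. The diamonds on the right compare the high dose with middle 3 alone.

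In 3 members (11.1%) every dosed group lay above the controls, against 4.65% of all genes: Slc25a20, Slc25a22 and Slc25a39. Slc25a21 was the only tested member with every dosed group below the controls, a pattern shown by 3.64% of all genes. Group means rose at each step of dose in 4 of 27 members, among them Slc25a12, Slc25a20 and Slc25a32 (12.8% of all genes) and fell at each step in 4 of 27, Slc25a10, Slc25a21, Slc25a29 and Slc25a38 (11.1% of all genes). The median SD over 3 animals was 0.05 for members in the controls and 0.09 at 300 mg/kg, beside 0.07 and 0.11 for all genes. Probes for Slc25a6, Slc25a44 and Slc25a46, named only through older symbols and outside the 42, were not called against control at any dose; that of Slc25a6, an ADP/ATP carrier, was called lower at 600 than at 300 mg/kg (-0.14, adjusted p = 0.0494 over all probes), and those of Slc25a44 and Slc25a46 were not.

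Of 23 tested proteins that share the membranes with these carriers, 6 rose (26.1%) and 2 fell (8.70%) at 600 mg/kg, with a median of 0.07; of all tested genes 18.0% rose and 16.8% fell. Cpt1b and Cpt1a, the outer-membrane enzymes that make the acylcarnitine carried by Slc25a20, rose by 0.60 ± 0.08 (adjusted p = 0.000452) and 0.26 ± 0.05 (adjusted p = 0.00374), and Cpt2, which uses it in the matrix, differed by 0.13 ± 0.05 (adjusted p = 0.0635). Tspo, a cholesterol-binding protein of the outer membrane, rose by 0.48 (adjusted p = 0.00329; 0.83, adjusted p = 0.0456 in the blocked fit), and the sideroflexins Sfxn4 and Sfxn5 moved apart, at 0.35 (adjusted p = 0.00073) and -0.44 (adjusted p = 0.0017). Of the pyruvate carrier, Mpc1 fell by 0.23 (-0.23, adjusted p = 0.0064) while Mpc2 differed by -0.02 (adjusted p = 0.808). Ucp2 differed by 0.21 (adjusted p = 0.132) and Vdac1, the outer-membrane channel, by -0.18 (adjusted p = 0.0515). Mtch1, a carrier relative of the outer membrane, rose by 0.17 (adjusted p = 0.034), while Mtch2 differed by 0.04 (adjusted p = 0.681) and its other probe by 0.18 (adjusted p = 0.00667).

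The machinery that inserts carriers held 17 tested genes, of which 5 rose (29.4%) and 1 fell (5.88%) at 600 mg/kg, with a median of 0.13, again beside 18.0% and 16.8% of all genes. Tomm70, the receptor that takes carriers from cytosolic chaperones, rose by 0.22 (adjusted p = 0.00268), as did Agk (0.22, adjusted p = 0.00866), a subunit of the TIM22 complex, and Timm8a1 (0.24, adjusted p = 0.00857), a chaperone of the space between the membranes. Timm10b fell (-0.26, adjusted p = 0.00953). Of 31 subunits of the respiratory chain and ATP synthase, 0 rose and 5 fell (16.1%, near the 16.8% of all genes; median -0.10), among them Atp5f1b (-0.25, adjusted p = 0.0113), Sdhb (-0.23, adjusted p = 0.047) and Atp5f1a (-0.20, adjusted p = 0.0171). Of 15 regulators of mitochondrial genes, 5 rose (33.3%) and 2 fell (13.3%; median 0.00): Pprc1 (0.56, adjusted p = 0.00081), Polg (0.30, adjusted p = 0.0131) and Gabpa (0.27, adjusted p = 0.00646) rose, Tfam rose by 0.22 (adjusted p = 0.0013), and the coactivators Ppargc1a (-0.54, adjusted p = 0.00255) and Ppargc1b (-0.41, adjusted p = 0.0173) fell.

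Of 37 enzymes that make or use the substrates of the carriers, 9 rose (24.3%) and 12 fell (32.4%) at 600 mg/kg, with a median of -0.08, beside 18.0% and 16.8% of all genes. Alas1, which starts heme synthesis from glycine, rose by 1.12 (2.17-fold, adjusted p = 5.57e-06; 1.02, adjusted p = 0.0301 in the blocked fit), beside a glycine carrier, Slc25a38, that did not pass the test. Ckmt1, the mitochondrial creatine kinase, and Me2, the mitochondrial malic enzyme, rose by 0.56 (adjusted p = 0.000276) and 0.41 (adjusted p = 9.97e-05). Pck1 and Pc, enzymes of glucose synthesis, fell (-0.67, adjusted p = 0.00186, and -0.57, adjusted p = 0.000242), as did Ass1, an enzyme that uses citrulline (-0.41, adjusted p = 0.000648). In the blocked fit, 1 member of this list (Alas1) and 1 of the other transport proteins (Tspo) were called higher, and 0 of the genes in the import, respiratory chain and regulator lists were called; the blocked medians were 0.07, 0.05, 0.05, 0.03 and 0.02 in the order enzymes, other transport proteins, import, respiratory chain and regulators.

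Markers of several cell types differed from the controls at 600 mg/kg, where 18.0% of all tested genes were higher and 16.8% lower. Most of these marker lists hold few genes. All 10 proximal tubule markers were well above background, as the tissue label requires; 8 fell and 0 rose at 600 mg/kg (median -0.44), and their summed signal, in multiples of the 75th percentile of the array, was 597 to 622 in the controls, 584 to 627 at 150 mg/kg, 571 to 585 at 300 mg/kg and 456 to 469 at 600 mg/kg. Of 7 macrophage markers 5 rose (summed signal 21.6 to 23.6 in the controls and 25.9 to 31.1 at 600 mg/kg, with Cd163 not above background), and of 5 endothelial markers 4 fell (53.6 to 56.6 and 42.6 to 45). Loop and distal tubule markers rose in 3 of 5 (343 to 370 and 382 to 401, with Pvalb not above background), and collecting duct markers in 4 of 7 (98.4 to 102 and 107 to 110). Of the red cell markers 3 of 3 fell (3.71 to 4.01 and 1.91 to 3.04). Adipocyte markers rose in 3 of 4 (2.57 to 2.75 and 3.34 to 3.67) with Lep, Plin1 and Ucp1 not above background, and adrenal markers in 2 of 3 (0.136 to 0.163 and 0.203 to 0.225) with Cyp11a1, Cyp11b1, Cyp11b2 and Cyp21a1 not above background. In the blocked fit 2 proximal tubule markers were called lower and 1 loop and distal tubule marker higher, and 0 of the macrophage, endothelial, collecting duct, red cell, adipocyte and adrenal markers were called. The blocked medians were -0.24 for proximal tubule (from -0.44), 0.49 for loop and distal tubule (from 0.39), 0.42 for collecting duct (from 0.21), 0.30 for macrophages (from 0.41), -0.36 for endothelium (from -0.28), -1.19 for red cells (from -0.62), 0.07 for adipocytes (from 0.40) and 0.37 for adrenal markers (from 0.62). At 300 mg/kg the summed signals were 23.6 to 29 for macrophages and 50 to 51.2 for endothelium. They were 375 to 410 for loop and distal tubule and 113 to 115 for collecting duct. Those of red cells, adipocytes and adrenal gland were 1.78 to 2.78, 2.34 to 2.87 and 0.201 to 0.203. The sets thus did not all follow the order of dose. The part of the marker shifts in the changes of the carriers was not tested.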

How the data were processed

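Total RNA of kidney cortex was labelled with a single dye, Cy3, and hybridised to Agilent rat arrays, 12 in all. Per the file headers, Feature Extraction 9.1.3.1 made the processed signals, which are linear intensity values after background subtraction, and the deposited flags mark spots as well above background, saturated or outliers. The authors' deposited value table is a linear ratio: the processed signal over 1 constant per array (58.91 to 68.47).

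From these, log2 processed signals minus the 75th percentile of the array were computed, without control and outlier spots. Probes were named by accession (10735), symbol (5571) or older symbol (3729) through the reference table (GRCr8); 20977 stayed unmatched. The probe with the highest mean stood for a gene, chosen without the groups. A gene was tested where the 3 arrays of any group all read well above background (20760 genes). limma 3.58.1 (R 4.3.3) fitted 1 mean per group to all 12 arrays with 8 residual degrees of freedom (5 with slide as a block), on the log2 scale; p-values are two-sided and Benjamini-Hochberg adjusted over all tested genes within a comparison, and errors are standard errors. The fit was tested on simulated data. Intervals cover 95%. Animals are the replicates, and their number limits the precision. Folds against a group not well above background are bounds against the lowest signal well above background.

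The values of 1 tested member, counted in the totals, are not reported here. Members and lists were chosen with earlier results of these data known. Values per array are given for members called at 300 or 600 mg/kg or between neighbouring doses and for a fixed set of well-known carriers; up to 3 genes each way are named per list, beside a fixed few. Slc25a24 and Slc25a25 were added after their values were seen. Alternatives were quantile and median scaling, normexp with an offset of 50, the value table, filters, probe means, slide, scan day or replicate number as a block, and leaving out each array.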

Additional observations from a re-analysis of the deposited data

How the results depend on the processing

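The count of called members at 600 mg/kg against control was 13 and ran from 10 to 15 under the alternatives other than slide as a block, which gave 0. At 300 mg/kg against control it was 3; normexp background correction gave 6, no filter on dim probes gave 1 and slide as a block gave 0, and leaving out 1 array gave 0 to 4. For 600 against 300 mg/kg it was 5, with 2 under slide as a block and 4 to 6 when 1 array was left out. At 600 mg/kg against control, leaving out 1 control or high-dose array gave 10 to 11 and leaving out 1 low- or middle-dose array gave 12 to 15; leaving out any array gave 0 in the comparisons that called 0. With the replicate number as a block the counts were 12 at 600 mg/kg and 3 at 300 mg/kg against control, 5 for 600 against 300 mg/kg and 0 in the others. Deviations from the group means correlated from -0.225 to 0.116 over 18 same-numbered pairs of animals and from -0.242 to 0.279 over 36 other pairs. Deviations within a group sum to 0, which ties these values to one another, so they cannot exclude a pairing of animals by number. No called member changed direction under any alternative. The cause of these differences was not tested; slide and dose cannot be told apart at 600 mg/kg against control. Members not well above background, Slc25a24 in most arrays and Slc25a47, are limited by signal.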
